A study of Mus musculus with 4 samples.

Results

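The genes described here belong to the Toll-like receptor and inflammasome pathway: Tlr2, Tlr4, Tlr7, Tlr9, Myd88, Cd14, Nlrp3, Casp1, Il1b and Il18. They were taken by name as members of this pathway, a choice made with earlier results of these data known, and are 10 of 33981 genes in the joined tables, each found once. RNA came from a coronal section of brain holding the prefrontal cortex, from male C57BL/6J mice aged 3 to 5 months, in 4 groups of 6 libraries. NT + Sham and NT + Stroke mice (normotensive) were infused with saline as the vehicle, and HT + Sham and HT + Stroke mice (hypertensive) with angiotensin II, the dose being 0.28 mg per kg each day, and all tissue was taken on day 28. Sham surgery or photothrombotic stroke, in which light clots the vessels under a chosen area of cortex, was done on day 7 of infusion, 1.5 mm anterior to bregma per the labels. No group carried a transgene or a deleted allele. How much of the infarct the section of each stroke mouse held is not given in the sources used here.

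Toll-like receptors bind molecules of microbes and of damaged cells. Tlr2 and Tlr4 sit at the cell surface, where Cd14 hands ligands to them, while Tlr7 and Tlr9 bind RNA and DNA inside endosomes, and all of these receptors signal through the adaptor Myd88 to NF-kB. Nlrp3 is a sensor in the cytoplasm that assembles an inflammasome, in which the protease Casp1 is activated and cleaves the precursors of the cytokines Il1b and Il18. In brain these genes are best known from microglia and other myeloid cells, with Il18 also reported from neurons and other glia.

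In the tables Tlr2 (ENSMUSG00000027995) lies at chr3:83836272-83841767 on the minus strand, Tlr4 at chr4:66827584-66930284 on the plus strand, Tlr7 at chrX:167304929-167330558 on the minus strand and Tlr9 at chr9:106222598-106226883 on the plus strand. Myd88 lies at chr9:119335934-119341411 on the minus strand, and the position of Cd14 (ENSMUSG00000051439) is not printed here. Nlrp3 lies at chr11:59541568-59566956 and Casp1 at chr9:5298517-5307265, both on the plus strand. Il1b lies at chr2:129364570-129371139 on the minus strand and Il18 at chr9:50554827-50581840 on the plus strand. All 10 are protein-coding genes, and the positions of 9 of them, all but Cd14, are the same in GENCODE M21 on GRCm38. Reads of 3 of the genes share ground with others. Myd88 overlaps Acaa1a on the opposite strand over 1736 bases, and Acaa1a had 1441 to 2890 counts a library. It also overlaps Slc22a14, on the same strand, over 5478 bases, with 0 to 5 counts. Il18 overlaps Bco2 on the opposite strand over 355 bases, with 34 to 82 counts, and Tex12 over 4507 bases, with 0 to 4 counts, and Il1b overlaps the antisense gene Il1bos over 1243 bases, with 0 to 9 counts. Whether counting used the strand is not given in the sources used here, so reads in these overlaps cannot be assigned with certainty.

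RefSeq promoters on GRCm38.p6 were used for 7 of the 10 genes (Tlr2, Tlr9, Myd88, Nlrp3, Casp1, Il1b and Il18), and Tlr4, Tlr7 and Cd14 were not searched. The 250 bases before each start were searched on both strands for 4 short motifs. These were kappaB (GGNNTTTCC), the ETS/PU.1 core (GAGGAA), AP-1 (TGACTCA) and the ISRE core (GAAANNGAA), and no pair of them shares a match here. A kappaB match was present before both starts of Nlrp3 and of no other member searched, against 4.93% of all 32851 promoters. The ETS/PU.1 core was present for Tlr9, for Casp1 and for the second start of Nlrp3, against 23.25% of all promoters. The AP-1 motif was present for Tlr9, against 4.46%, and the ISRE core for Myd88, against 7.13%. No match was found in these windows of Tlr2, Il1b and Il18. Some RefSeq starts lie inside the gene as placed above. The windows of Tlr2, of Myd88 and of the first start of Nlrp3 overlap exons of the same gene. The second Nlrp3 window lies inside the gene but overlaps no exon. For Il18 the bases after the RefSeq start were not found in its GENCODE transcripts. Shown 5′ to 3′ on the gene's own strand, with every match in capitals, are the sensor, the protease and the substrate of the inflammasome and 1 receptor for comparison, at chr11:59542436-59542685 (plus strand), chr9:5298267-5298516 (plus strand), chr2:129371140-129371389 (minus strand) and chr9:106222348-106222597 (plus strand).
Nlrp3: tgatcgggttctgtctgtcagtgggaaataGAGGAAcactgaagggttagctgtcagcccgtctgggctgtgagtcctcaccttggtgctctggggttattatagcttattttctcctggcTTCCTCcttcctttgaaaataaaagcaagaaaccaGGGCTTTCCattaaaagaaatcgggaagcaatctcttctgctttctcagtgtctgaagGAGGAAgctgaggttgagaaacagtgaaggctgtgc
Casp1: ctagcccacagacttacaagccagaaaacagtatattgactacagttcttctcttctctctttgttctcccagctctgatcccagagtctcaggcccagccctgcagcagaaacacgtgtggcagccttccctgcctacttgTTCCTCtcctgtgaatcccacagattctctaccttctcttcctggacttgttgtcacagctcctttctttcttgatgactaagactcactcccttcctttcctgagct
Il1b: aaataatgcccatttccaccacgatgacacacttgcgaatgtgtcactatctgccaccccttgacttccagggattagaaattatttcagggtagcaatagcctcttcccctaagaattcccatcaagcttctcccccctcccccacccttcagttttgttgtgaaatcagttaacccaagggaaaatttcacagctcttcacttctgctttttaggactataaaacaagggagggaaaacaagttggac
Tlr9: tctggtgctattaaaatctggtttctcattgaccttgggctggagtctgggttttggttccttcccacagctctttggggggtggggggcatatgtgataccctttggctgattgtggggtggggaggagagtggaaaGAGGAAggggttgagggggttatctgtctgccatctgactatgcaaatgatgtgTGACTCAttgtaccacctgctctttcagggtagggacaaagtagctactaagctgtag
Nlrp3 holds 3 ETS/PU.1 cores and, at 94 to 86 bases before the start, a kappaB match. Casp1 holds 1 ETS/PU.1 core, read on the opposite strand, and the Il1b window holds no match and has no capitals. The matches are letters in a window and no binding was measured.

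Total counts were 15922919 to 24865998 a library (median 18497215). The section's identity was checked on lists of marker genes: the summed level of 5 cortical neuron genes was 1736 to 3402 CPM (counts scaled to a common library size, with TMM factors) over the 24 libraries, and no gene of it was at 0. Markers of neighbouring tissue varied widely between libraries, from 48.0 to 804 CPM for 5 striatal genes and from 35.0 to 491 CPM for 5 olfactory bulb genes. Libraries 1 and 6 of HT + Stroke stood apart from the other 4. Their summed astrocyte markers were 721 CPM in each, inside the range of the sham groups (613 to 1181 CPM), against 1448 to 2066 CPM in the other 4 HT + Stroke libraries. Not every list went this way. Their summed T cell markers were 22.8 and 26.0 CPM, above every sham library (2.85 to 14.3 CPM) and inside the HT + Stroke range of 11.3 to 33.3 CPM. Summed neutrophil markers were 0.284 CPM in library 1 and 9.76 CPM in library 6, against at most 4.76 CPM in the sham groups. Library 6 of HT + Sham stood apart in the other direction, with astrocyte markers at 1181 CPM against at most 754 CPM in the other 5. It also had the highest olfactory bulb sum (491 CPM) and the lowest striatal sum (48.0 CPM) of the 24 libraries. The HT + Stroke pair was picked by low astrocyte and microglia markers, lists that stroke itself raised in NT mice. Values without these libraries are therefore given as a description beside the values with all 6. All libraries were kept in the groups of their labels, and what sets these 3 apart was not tested.

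Per length, Il18 was by far the most abundant of the 10 transcripts. In NT + Sham its level was 18.7 ± 2.47 FPKM (reads scaled to gene length and library size; SD, n = 6), followed by Myd88 at 2.27 ± 0.156, Cd14 at 1.89 ± 0.402 and Casp1 at 1.48 ± 0.352 FPKM. Tlr7 (0.306 ± 0.0275), Tlr2 (0.305 ± 0.0327), Tlr9 (0.220 ± 0.166), Nlrp3 (0.171 ± 0.0574), Tlr4 (0.128 ± 0.0604) and Il1b (0.120 ± 0.0650 FPKM) were all low. Only the steps from Il18 to Myd88 and from Casp1 to Tlr7 separated neighbours whose libraries did not overlap in range. In NT + Stroke the FPKM order became Il18 (21.7 ± 1.1), Cd14 (5.34 ± 1.0), Casp1 (3.63 ± 1.40), Myd88 (3.42 ± 0.346), Tlr2 (1.80 ± 0.410) and Tlr7 (0.925 ± 0.195), then Tlr9, Il1b, Tlr4 and Nlrp3 between 0.344 and 0.393 FPKM. There Tlr2 and Tlr7 did not overlap with each other or with their other neighbour in the order, whereas the last 4 overlapped with each other. Depth limits the low genes: Il1b had 2 to 9 counts in each sham library, while Il18 had 257 to 556 counts in each of the 24.

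**Figure D1:**
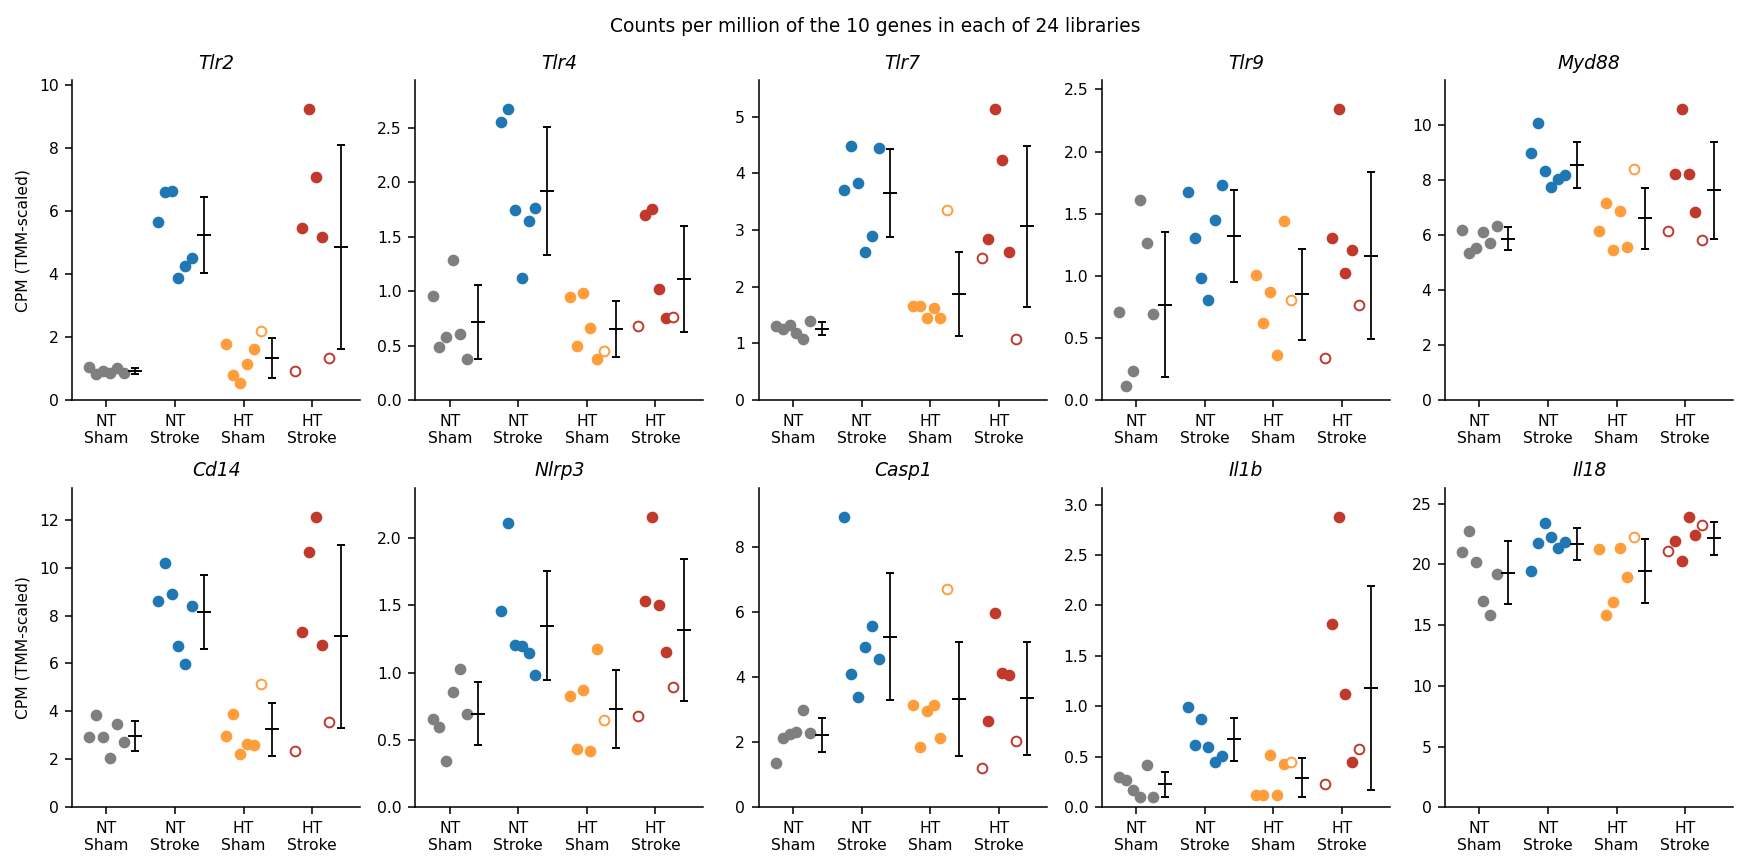
Level in CPM (linear axes from 0) of the 10 genes, 1 point a library, 6 libraries in each of 4 groups, with the mean and SD as black bars; open circles are HT + Stroke libraries 1 and 6 and HT + Sham library 6. All 6 NT + Stroke points of Tlr2 (3.89 to 6.62 CPM) lie above all NT + Sham points (0.816 to 1.06 CPM), while HT + Stroke spans 0.910 to 9.22 CPM.

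The effect of stroke in normotensive mice was the clearest. In NT + Stroke against NT + Sham, 7 of the 9 members tested rose, none fell, and Tlr9 and Il18 did not pass the test, where 14.4% of all genes tested rose (edgeR quasi-likelihood test, Benjamini-Hochberg adjusted P under 0.05). The median log2 fold change of the 9 was 1.24, against -0.01 over all genes tested. The 6 libraries of each group did not overlap for 5 of these 9, where 7.78% of all genes were higher without overlap. Il1b had too few counts for the filter and is given apart.

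Tlr2, the surface receptor for bacterial lipoproteins, changed most. Its level ranged from 0.816 to 1.06 CPM (median 0.891) in NT + Sham and from 3.89 to 6.62 CPM (median 5.08) in NT + Stroke. The lowest stroke library was thus above every sham library, with a log2 fold change of 2.49 ± 0.18 (SE), or 5.63-fold (adjusted P = 7.83e-08). Tlr4, the receptor for lipopolysaccharide, ranged from 0.373 to 1.29 CPM (median 0.592) in NT + Sham and from 1.12 to 2.67 CPM (median 1.76) in NT + Stroke. It rose by 1.41 ± 0.29 on the log2 scale (adjusted P = 0.00159), with 5 of 6 stroke libraries above all sham libraries. Cd14, the co-receptor that presents ligands to both, ranged from 2.04 to 3.86 CPM (median 2.93) in NT + Sham and from 5.98 to 10.2 CPM (median 8.51) in NT + Stroke, with no overlap. Its log2 fold change was 1.44 ± 0.16, or 2.72-fold (adjusted P = 3.82e-06).

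Of the endosomal receptors, Tlr7 rose and Tlr9 did not pass the test. Tlr7, which binds single-stranded RNA, ranged from 1.07 to 1.39 CPM (median 1.28) in NT + Sham and from 2.60 to 4.47 CPM (median 3.77) in NT + Stroke. The groups did not overlap, and the log2 fold change was 1.54 ± 0.18, or 2.91-fold (adjusted P = 5.68e-06). Tlr9, which binds unmethylated DNA, ranged from 0.109 to 1.61 CPM (median 0.699) in NT + Sham and from 0.801 to 1.73 CPM (median 1.38) in NT + Stroke. The sham libraries alone spanned 2 to 30 counts of Tlr9, and its log2 fold change of 0.77 ± 0.41 had an adjusted P of 0.192. Myd88, the adaptor, moved little but evenly, from 5.33 to 6.34 CPM (median 5.91) in NT + Sham to 7.73 to 10.1 CPM (median 8.24) in NT + Stroke. With no overlap between the groups its log2 fold change of 0.54 ± 0.10 passed the test (adjusted P = 0.000502).

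Both inflammasome genes rose. Nlrp3 ranged from 0.346 to 1.03 CPM (median 0.674) in NT + Sham and from 0.982 to 2.11 CPM (median 1.2) in NT + Stroke, and 5 of 6 stroke libraries were above all sham libraries. Its log2 fold change was 0.93 ± 0.27 (adjusted P = 0.0160). Casp1 ranged from 1.36 to 2.99 CPM (median 2.27) in NT + Sham and from 3.39 to 8.93 CPM (median 4.74) in NT + Stroke, without overlap, and rose by 1.24 ± 0.22 on the log2 scale (adjusted P = 0.000416). The cytokine substrates differed from each other. Il1b averaged 0.230 ± 0.124 CPM in sham and 0.675 ± 0.213 CPM in stroke libraries (SD, n = 6), and every stroke library (at least 0.449 CPM) was above every sham library (at most 0.421 CPM). An exact two-sided permutation test gave P = 0.00216 for Il1b, the smallest that 6 against 6 libraries allow, or 0.00866 adjusted over the 4 comparisons in which the filter left it out. Il18, already the most abundant, ranged from 15.8 to 22.7 CPM (median 19.7) in NT + Sham and from 19.5 to 23.4 CPM (median 21.8) in NT + Stroke. The groups overlapped, and the log2 fold change of 0.17 ± 0.09 did not pass the test (adjusted P = 0.157; 95% interval 0.00 to 0.34).

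**Figure D2:**
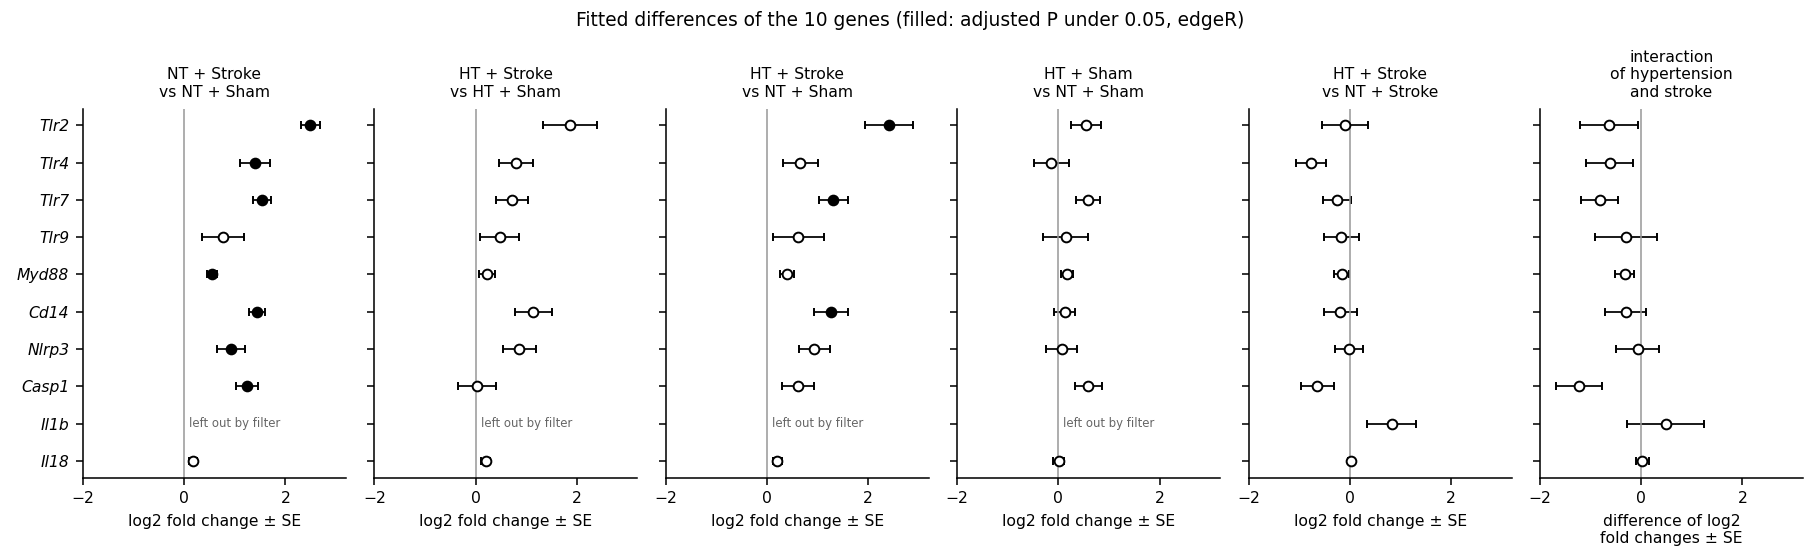
Fitted log2 fold change ± SE of each gene in 5 comparisons, and in the last panel the difference between the log2 fold changes of stroke in HT and in NT mice; filled points had an adjusted P under 0.05. In NT + Stroke against NT + Sham 7 genes are filled, in HT + Stroke against NT + Sham 3, and in the other panels 0.

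Markers of several cell types and of neighbouring tissue moved with these genes. In NT + Stroke against NT + Sham, 7 of 9 microglia markers, 5 of 5 pan-myeloid markers and 5 of 7 border macrophage markers rose, and none fell. Over all genes tested 14.4% rose and 11.5% fell, shares that hold beside all counts of markers given here. The summed level was 205 to 240 CPM in NT + Sham and 306 to 361 CPM in NT + Stroke for microglia. For pan-myeloid genes it was 106 to 118 and 165 to 280 CPM, and for border macrophages 9.20 to 16.8 and 22.4 to 42.3 CPM. Neutrophil markers summed to 0.906 to 2.29 CPM in NT + Sham, with all 8 genes under 1 CPM in every library, and to 2.96 to 57.5 CPM in NT + Stroke, where libraries 5 (57.5 CPM) and 1 (23.0 CPM) were high. Of the markers tested, 3 of 4 monocyte genes (summed level of the list 9.97 to 11.9 CPM in NT + Sham and 12.7 to 17.5 CPM in NT + Stroke) and 2 of 3 T cell genes (3.00 to 11.7 and 6.21 to 27.4 CPM) rose. So did 3 of 5 olfactory bulb genes (62.4 to 147 and 101 to 406 CPM). No marker of these 7 lists was at 0 throughout either group. All 5 astrocyte markers rose and all 5 cortical neuron markers fell, the latter from 2782 to 3388 CPM down to 1844 to 2639 CPM summed. The part of these cell populations and of neighbouring tissue in the members' differences was not tested. In bulk tissue, more cells of a type and more RNA per cell cannot be told apart.

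In hypertensive mice none of the 9 members tested with edgeR passed after adjustment over all genes tested. Il1b passed its own permutation test, which was adjusted over 4 comparisons only, so the outcomes cannot be compared. The unadjusted edgeR P values of Tlr2 (0.00398) and Cd14 (0.00659) were smaller than the permutation P of Il1b (0.0260). In HT + Stroke against HT + Sham, 0 of 9 members tested had an adjusted P under 0.05, where 0.645% of all genes did, although all 9 fitted differences were above 0 (median log2 fold change 0.73) and 6 had an unadjusted P under 0.05, where 17% of all genes did. With DESeq2 3 of 10 members passed (Tlr2, Cd14 and Il1b), where 4.88% of all genes with an adjusted P did. The spread within HT + Stroke was wide. Tlr2 ranged from 0.522 to 2.20 CPM (median 1.38) in HT + Sham and from 0.910 to 9.22 CPM (median 5.31) in HT + Stroke, with 4 stroke libraries above all sham libraries and libraries 1 (0.910 CPM) and 6 (1.34 CPM) inside the sham range. Its log2 fold change was 1.86 ± 0.53 (adjusted P = 0.108). Cd14 ranged from 2.20 to 5.16 CPM (median 2.81) in HT + Sham and from 2.33 to 12.1 CPM (median 7.05) in HT + Stroke. The fitted log2 difference was 1.15 ± 0.36 (adjusted P = 0.127), and again 4 stroke libraries lay above all sham libraries.

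Tlr7, Tlr4 and Nlrp3 showed smaller differences with overlap. Tlr7 ranged from 1.44 to 3.35 CPM in HT + Sham and from 1.08 to 5.13 CPM in HT + Stroke (log2 fold change 0.73 ± 0.32, adjusted P = 0.256). Tlr4 ranged from 0.374 to 0.986 CPM and from 0.683 to 1.75 CPM (0.79 ± 0.34, adjusted P = 0.241), and Nlrp3 from 0.422 to 1.18 CPM and from 0.683 to 2.16 CPM (0.87 ± 0.32, adjusted P = 0.180). Casp1 had nearly the same mean in both groups, 3.32 ± 1.75 CPM in HT + Sham and 3.35 ± 1.73 CPM in HT + Stroke (SD, n = 6). Its log2 fold change was 0.03 ± 0.37, with a 95% interval from -0.70 to 0.75 that takes in a fold change of either sign. Tlr9 (0.47 ± 0.39), Myd88 (0.22 ± 0.16) and Il18 (0.20 ± 0.09) had adjusted P values of 0.577, 0.520 and 0.288. Levels of Il1b averaged 0.294 ± 0.192 CPM in HT + Sham mice, and 1.18 ± 1.01 CPM after stroke, with 4 stroke libraries above all sham libraries. Its exact permutation test gave P = 0.0260, or 0.0346 adjusted over 4 comparisons.

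The result rests on a few libraries. For 7 of the 10 members HT + Stroke libraries 1 and 6 were the 2 lowest of the 6, and for 8 members library 3 was the highest. Libraries 1 and 6 were picked after the data were seen, by low levels of astrocyte and microglia markers, lists that stroke raised in NT mice. Leaving them out therefore favours a rise with stroke, and values without them are a description and not a test. Without them 4 of 9 members (Tlr2, Tlr7, Cd14 and Nlrp3) had an adjusted P under 0.05, where 6.85% of all genes did. Their log2 fold changes were 2.31 ± 0.30, 0.98 ± 0.27, 1.50 ± 0.24 and 1.11 ± 0.31. Without library 1 alone, 2 passed (Tlr2 and Cd14), where 451 of 16901 genes rose and 81 fell. Tlr2 was 6.73 ± 1.86 CPM in the remaining 4 HT + Stroke libraries (SD, n = 4). Without HT + Sham library 6 as well, 3 passed (Tlr2, Tlr7 and Cd14), where 8.47% of all genes did, and the log2 difference of Casp1 was then 0.68 ± 0.25 (adjusted P = 0.115). In the 2 low libraries microglia markers summed to 211 and 218 CPM, against at most 425 CPM in HT + Stroke and 222 to 291 CPM in HT + Sham. T cell markers were not low in them, at 22.8 and 26.0 CPM against 2.85 to 14.3 CPM in HT + Sham. The part of these cells in the difference was not tested.

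**Figure D3:**
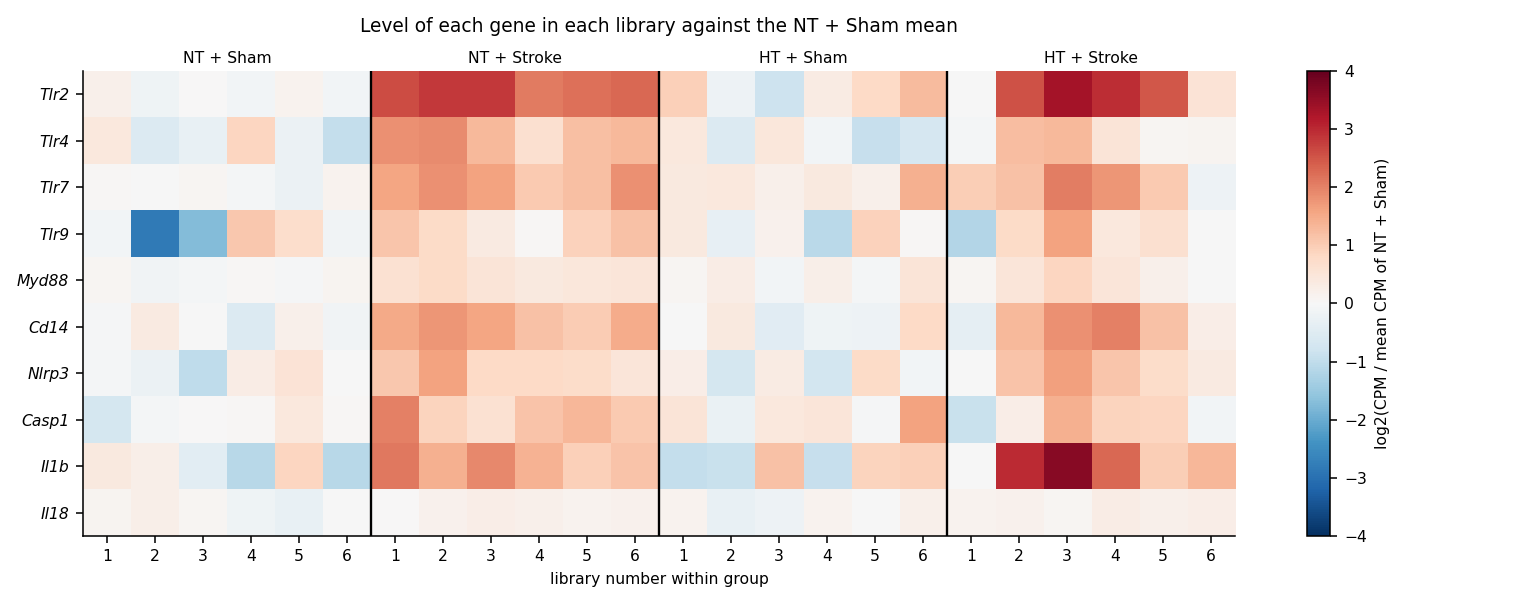
Colour gives the log2 ratio of each gene's CPM in each library to its mean in NT + Sham, with 10 genes in lines and 24 libraries in columns by group. All 10 genes are above that mean in each NT + Stroke library and in HT + Stroke libraries 2 to 5, but 3 of 10 in HT + Stroke library 1 and 6 of 10 in library 6.

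With both treatments against neither, 3 of 9 members rose and none fell in HT + Stroke against NT + Sham, where 8.38% of all genes rose. These were Tlr2 (log2 fold change 2.41 ± 0.47, adjusted P = 0.0111), Tlr7 (1.31 ± 0.29, adjusted P = 0.0122) and Cd14 (1.27 ± 0.33, adjusted P = 0.0239). No member was free of overlap, where 2.35% of all genes were higher without overlap, and in each member library 1 or 6 of HT + Stroke lay inside or below the NT + Sham range. Nlrp3 (0.93 ± 0.31) and Myd88 (0.39 ± 0.14) came close to the threshold, with adjusted P values of 0.0526 and 0.0768, and Casp1 (0.62 ± 0.31), Tlr4 (0.66 ± 0.34), Tlr9 (0.62 ± 0.50) and Il18 (0.21 ± 0.09) were further from it at 0.204, 0.217, 0.452 and 0.140. Il1b was higher in 5 of 6 HT + Stroke libraries than in any NT + Sham library (exact permutation test P = 0.0130, or 0.0260 adjusted over 4 comparisons only). Without HT + Stroke libraries 1 and 6, as a description, 6 of 9 members rose, where 20.6% of all genes passed in either direction. These were Tlr2, Tlr7, Myd88, Cd14, Nlrp3 and Casp1. Without library 1 alone 6 members passed, where 1753 of 16936 genes rose and 1213 fell. Without library 6 alone 5 passed, where 1616 of 16946 genes rose and 1153 fell. Cd14 lost its call when NT + Sham library 1 or 4 or HT + Stroke library 4 was left out (adjusted P = 0.0515, 0.0575 and 0.0534). It also lost it with library number as a block (0.0774), with limma on log2(FPKM + 1) and log2(FPKM + 0.1) (0.0604 and 0.0576) and with all genes of at least 1 count (0.0737). With DESeq2 5 of 10 members passed, where 16.7% of all genes with an adjusted P did. This comparison shares its NT + Sham libraries with the comparison of stroke in NT mice.

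Angiotensin II alone gave no called member. In HT + Sham against NT + Sham 0 of 9 members passed, where 0% of all genes did, and 2 had an unadjusted P under 0.05, where 8.03% of all genes did. DESeq2 also called 0. These 2 were Tlr7 (log2 fold change 0.58 ± 0.23, unadjusted P = 0.0224, adjusted 0.531) and Casp1 (0.59 ± 0.27, unadjusted P = 0.0430, adjusted 0.610). All 6 HT + Sham libraries had more Tlr7 (1.44 to 3.35 CPM) than any NT + Sham library (1.07 to 1.39 CPM), where 0.169% of all genes were higher without overlap. HT + Sham library 6 was the highest for both genes, and without it the differences were 0.32 ± 0.19 and 0.25 ± 0.21 (unadjusted P = 0.109 and 0.249). This library had raised astrocyte markers, and the highest olfactory bulb (491 CPM) and lowest striatal (48.0 CPM) sums of all libraries. The part of its tissue content in the differences was not tested. Tlr2 in HT + Sham lay on both sides of the controls, with 4 libraries above all NT + Sham libraries and 2 below all of them (0.55 ± 0.29, adjusted P = 0.700). The 95% intervals of Myd88 (-0.07 to 0.41), Il18 (-0.20 to 0.22) and Cd14 (-0.29 to 0.54) were the narrowest on the log2 scale. Il1b did not pass (exact permutation test P = 0.496).

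Hypertension within stroke mice gave no called member. In HT + Stroke against NT + Stroke 0 of 10 members passed with edgeR or DESeq2, where edgeR called 0% of all genes, and 1 had an unadjusted P under 0.05, where 7.23% of all genes did. This was Tlr4, which ranged from 1.12 to 2.67 CPM (median 1.76) in NT + Stroke and from 0.683 to 1.75 CPM (median 0.892) in HT + Stroke. All 6 HT + Stroke libraries were below the NT + Stroke median and 4 were below every NT + Stroke library (log2 fold change -0.77 ± 0.29, unadjusted P = 0.0184, adjusted 0.654). Without HT + Stroke libraries 1 and 6 it was -0.55 ± 0.30. Il1b went the other way, with 3 HT + Stroke libraries above all NT + Stroke libraries, up to 2.88 CPM against 0.992 CPM, and a log2 fold change of 0.83 ± 0.49 (adjusted P = 0.660). Without libraries 1 and 6 it was 1.22 ± 0.41 (adjusted P = 0.854), at 1.57 ± 1.04 CPM (SD, n = 4). For Casp1 the fitted difference was -0.64 ± 0.33 on the log2 scale (adjusted P = 0.654), with 3 HT + Stroke libraries below all NT + Stroke libraries and none above. Tlr2 (-0.10 ± 0.45), Tlr7 (-0.25 ± 0.28), Cd14 (-0.19 ± 0.32), Nlrp3 (-0.01 ± 0.28) and Tlr9 (-0.17 ± 0.35) were near 0 and turned above 0 without libraries 1 and 6. These libraries were picked by low markers that stroke raised, and no NT + Stroke library was left out likewise. Leaving them out therefore favours higher HT + Stroke values, and all values without them are a description. With all libraries the 95% intervals of these genes were wide, from -0.97 to 0.78 for Tlr2, while that of Il18 was -0.10 to 0.15.

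The difference between the stroke effects in HT and NT mice was tested directly as an interaction over all 4 groups. With edgeR and with DESeq2 0 of 10 members passed, where edgeR called 0% and DESeq2 0.131% of all genes, and 2 had an unadjusted P under 0.05, where 10.4% of all genes did. Casp1 had the largest difference, with a log2 fold change of stroke lower by 1.22 ± 0.46 in HT than in NT mice (unadjusted P = 0.0127, adjusted 0.369), and Tlr7 followed at -0.82 ± 0.37 (unadjusted P = 0.0351, adjusted 0.454). Both included HT + Sham library 6, in which these 2 genes were high. Without that library and HT + Stroke libraries 1 and 6 they were -0.56 ± 0.35 and -0.30 ± 0.28. Of the 10 fitted differences 8 were below 0, with a median of -0.32 over the 10, and 2 (Il1b at 0.48 ± 0.76 and Il18 at 0.02 ± 0.13) were above. The stroke effects in NT and HT mice are therefore not shown to differ for any member.

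The other genes of the pathway were taken from a list of 76 names, of which 75 were in the tables. In NT + Stroke against NT + Sham 36 of 58 tested rose and 3 fell, where 25.9% of all genes were called in either direction (14.4% higher and 11.5% lower). By group, 5 of 5 other Toll-like receptors tested rose, 4 of 7 co-receptors and chaperones, 7 of 15 adaptors and kinases, 6 of 10 NF-kB and IRF genes, 10 of 15 inflammasome genes and 4 of 6 genes of the IL-1 family. Tnf, Il6 and Il12b were left out by the filter on low counts. Unc93b1, which carries the endosomal receptors to their place, went from a mean of 20.6 to 52.0 CPM (log2 fold change 1.34 ± 0.11, adjusted P = 5.72e-07). Lbp, which passes lipopolysaccharide to Cd14, went from 2.47 to 16.3 CPM (2.72 ± 0.31, adjusted P = 3.78e-05). Tlr1, the partner of Tlr2, went from 0.425 to 1.70 CPM (2.0 ± 0.27, adjusted P = 2.42e-05), and Tlr13, which binds bacterial ribosomal RNA, from 1.17 to 4.05 CPM (1.78 ± 0.23, adjusted P = 2.03e-05). Ly86, the partner of the receptor Cd180, rose by 1.38 ± 0.15 on the log2 scale, and Irf7, an interferon regulatory factor, by 1.16 ± 0.15. Txnip, a thioredoxin inhibitor that binds Nlrp3, rose by 1.07 ± 0.10, and Gsdmd, the pore-forming target of Casp1, from 3.65 to 7.37 CPM (1.01 ± 0.14, adjusted P = 3.83e-05). These 8 were named for the smallest adjusted P among the genes that rose, a choice that favours separated groups. In each of them all 6 stroke libraries lay above all sham libraries. Of the 58 tested, 25 were higher without overlap, where 7.78% of all genes were. The 3 that fell were Il1rap, a chain of the IL-1 receptor (-0.38 ± 0.07), Tollip, a negative regulator of the pathway (-0.22 ± 0.05), and the inflammasome sensor Nlrp6 (-0.88 ± 0.31).

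**Figure D4:**
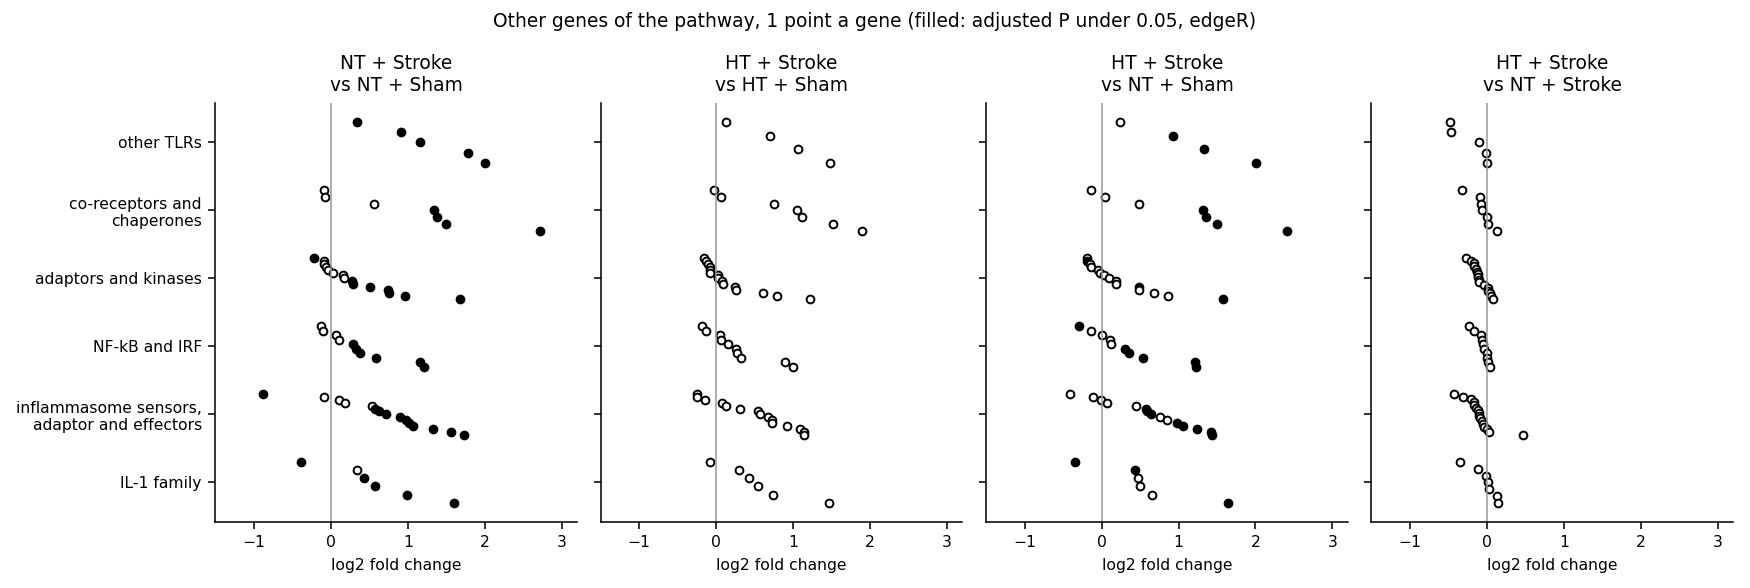
Log2 fold change of the other pathway genes that were tested, 1 point a gene, in 6 groups of genes and 4 comparisons; filled points had an adjusted P under 0.05. In NT + Stroke against NT + Sham 36 points are filled above 0 and 3 below, in HT + Stroke against NT + Sham 24 and 3, and in the other panels 0.

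In HT + Stroke against HT + Sham 0 of 57 pathway genes passed, where 0.645% of all genes did, and 25 had an unadjusted P under 0.05, all higher, where 17% of all genes had one in either direction. DESeq2 called 13, where it called 4.88% of all genes. The 3 with the smallest P were the alarmin Il33, with all 6 stroke libraries above all sham libraries (0.54 ± 0.13, adjusted P = 0.0673), the sensor Naip5 (1.15 ± 0.28, adjusted P = 0.0699) and the cytokine Il1a (1.46 ± 0.37, adjusted P = 0.0757). Without HT + Stroke libraries 1 and 6, as a description, 23 passed, where 6.85% of all genes did. In HT + Stroke against NT + Sham 24 of 57 rose and 3 fell, where 14.7% of all genes were called in either direction (6.37% lower). The 8 with the smallest adjusted P among those that rose were Casp4, which detects lipopolysaccharide in the cytoplasm (1.44 ± 0.28, adjusted P = 0.00981), Lbp (2.41 ± 0.47), Ly86 (1.31 ± 0.26), Tlr1 (2.0 ± 0.44), Txnip (0.98 ± 0.21), Irf7 (1.21 ± 0.27), the NF-kB subunit Rela (0.30 ± 0.07) and Naip5 (1.24 ± 0.28). Il1rap (-0.34 ± 0.09), Tollip (-0.19 ± 0.06) and the kinase Chuk (-0.29 ± 0.09) fell. Without HT + Stroke libraries 1 and 6, 33 were called in either direction against 27 with them, and without NT + Sham library 5, 17 were called.

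Hypertension was followed by no called pathway gene. In HT + Sham against NT + Sham 0 of 54 passed with edgeR and 0 with DESeq2, where both called 0% of all genes. An unadjusted P under 0.05 was found for 2, a smaller share than the 8.03% of all genes. These were Il1rap (-0.27 ± 0.08, unadjusted P = 0.00246, adjusted 0.406) and Nfkb1 (0.27 ± 0.09, unadjusted P = 0.00571, adjusted 0.435), and Unc93b1 came next (0.25 ± 0.12). In HT + Stroke against NT + Stroke 0 of 61 passed with edgeR, where 0% of all genes did. Here 2 had an unadjusted P under 0.05, where 7.23% of all genes did. They were the channel Panx1 (-0.20 ± 0.08, adjusted P = 0.654) and the kinase Tbk1 (-0.17 ± 0.07, adjusted P = 0.654), with Tab2 next (-0.20 ± 0.10). In the interaction 0 of 62 passed with edgeR, where 0% of all genes did. An unadjusted P under 0.05 was found for 1 above 0 and 2 below, where 10.4% of all genes had one. The 3 with the smallest P were Il1rap (0.30 ± 0.11, adjusted P = 0.369), Panx1 (-0.34 ± 0.14) and Tab2 (-0.27 ± 0.12).

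Across the 12 stroke libraries, with each group's mean removed, the genes most like each member by Spearman's rho of log2 CPM were listed as a description. The 12 points hold the 2 low HT + Stroke libraries, so rho over the other 10 is given second. Cd14 was most like Cd63 (0.993 and 0.952), Tlr2 like Il2rb (0.986 and 0.818) and Spp1 (0.979 and 0.988), and Casp1 like Aqp1 (0.986 and 0.964). Myd88 was most like Nckap1l (0.979 and 0.903), Nlrp3 like 3110001I22Rik (0.979 and 0.927), Tlr7 like Frk (0.972 and 0.867), and Tlr4 like Fstl1 (0.958 and 0.903). Il1b was most like S1pr2 (0.965 and 0.952), Tlr9 like Itgal (0.930 and 0.927), and Il18 like Tpi-rs11 (0.965 and 0.964). The libraries share tissue composition and these were the largest values over all genes compared, so none is a test.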

How the data were processed

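RNA from 24 mouse brain libraries, 6 a group, was purified on poly-T beads and sequenced by a commercial service. The authors deposited 4 tables, each for 1 comparison, with raw counts of reads per gene (featureCounts 1.5.0-p3 and DESeq2 1.20.0 per the labels, DESeq in the methods), FPKM made by the authors from counts and gene length, and columns of their own fold changes and p-values, which were not used. The aligner and genome build are not given in the sources used here. GEO holds 1 sample a group, the table headers number 6 libraries a group, and each was treated as 1 mouse, so P values measure the spread between these libraries. The 56 columns of normalised counts and group means were not used. Counts were joined by gene ID; libraries found in several tables agreed (0 of 48 column comparisons differed).

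Each comparison was fitted in R 4.3.3 with edgeR 4.0.16 (filterByExpr with a minimum count of 10 and total of 15, TMM, robust quasi-likelihood test, two-sided, Benjamini-Hochberg over all genes tested, threshold 0.05), on the libraries compared, or all 4 groups for the interaction. Il1b, where the filter left it out, had an exact permutation test of mean CPM, adjusted over those 4 comparisons and not over all genes. Intervals are 1.96 SE. All 10 members are named; of the pathway list, the 8 called genes with the smallest adjusted P each way, or the 3 smallest P. Alternatives were DESeq2 1.42.0, limma 3.58.1 on log2(FPKM + 1) and log2(FPKM + 0.1), other scalings and filters, all 4 groups fitted together, a replicate block and each library left out. Scripts were tested on simulated data. The members and lists were chosen with earlier results of these data known. Leaving out HT + Stroke libraries 1 and 6, with or without HT + Sham library 6, was chosen after the data were seen. No batch or date was given, so batches were not examined. Library numbers are not said to pair mice, and the main fits used no pairing. Same-numbered libraries deviated together (r over 0.1) in at most 3 of 6 pairs of a comparison. Differently numbered pairs were not set beside them, so this count cannot exclude pairing.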

Additional observations from a re-analysis of the deposited data

Results flagged for a closer look

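In each group of 6 libraries and for each of the 10 genes, the distance of the highest or lowest library to its neighbour was set against the whole range of the group by Dixon's test, in 40 groups. In 2 of these 40 groups 1 library passed the critical value, which is no more than the about 1 in 20 that chance gives. Both were HT + Sham library 6, so they are not independent. Tlr7 was 3.35 CPM there, against 1.44 to 1.66 CPM in the other 5 HT + Sham libraries, and Casp1 was 6.71 CPM, against 1.85 to 3.14 CPM. The same library had the highest level of 6 of the 10 genes within its group and the highest summed astrocyte markers (1181 CPM). Of all libraries it had the highest olfactory bulb sum (491 CPM) and the lowest striatal sum (48.0 CPM). Without it Casp1 was 2.64 ± 0.607 CPM and Tlr7 1.57 ± 0.112 CPM in HT + Sham (SD, n = 5).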

How the results depend on the processing

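The 7 members and 39 pathway genes called in NT + Stroke against NT + Sham, and the 0 called in HT + Sham against NT + Sham, in HT + Stroke against NT + Stroke and in the interaction, moved by less than 1.5 times under every alternative run. Members called in HT + Stroke against HT + Sham numbered 0, but 3 with DESeq2, 3 with all 4 groups fitted together, 4 without HT + Stroke libraries 1 and 6, 3 without HT + Sham library 6 too, and 0 to 2 with each library left out. The pathway genes there numbered 13, 18, 23, 24 and 0 to 11, and 1 with all genes of at least 1 count. Members called in HT + Stroke against NT + Sham numbered 3, but 5 with DESeq2, 6 with all 4 groups, 6 without libraries 1 and 6, 2 (without Cd14) with the replicate block and with both limma fits on FPKM, and 2 to 6 with each left out. With all genes of at least 1 count they were 3, with Il1b in place of Cd14. Pathway genes numbered 27, but 17 on log2(FPKM + 1), 14 with library number as a replicate block, and 17 to 32 with each left out. The replicate block changed no other count of calls. With no scaling beyond library size, 2983 genes rose and 1025 fell in NT + Stroke against NT + Sham, against 2426 and 1939 with TMM, and the median of all genes went from -0.01 to 0.06.

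Signs changed only for members that were not called. In HT + Stroke against NT + Stroke without libraries 1 and 6 the log2 fold change was 0.36 for Tlr2, 0.0173 for Tlr7, 0.15 for Tlr9, 0.18 for Cd14 and 0.24 for Nlrp3, and with no scaling -0.0236 for Il18. In the interaction it was 0.0177 for Tlr9, 0.0607 for Cd14 and 0.18 for Nlrp3 without these 2, 0.0236 for Tlr2, 0.25 for Cd14 and 0.15 for Nlrp3 without HT + Sham library 6 too, and -0.0533 for Il18 with no scaling. Casp1 in HT + Stroke against HT + Sham was -0.0006 on log2(FPKM + 0.1) and -0.23 to 0.36 with each library left out. With each left out, HT + Stroke against NT + Stroke gave -0.38 to 0.11 for Tlr2, -0.50 to 0.0109 for Tlr9 and -0.21 to 0.15 for Nlrp3. HT + Sham against NT + Sham gave -0.29 to 0.10 for Tlr4, -0.0781 to 0.47 for Tlr9, -0.0673 to 0.21 for Cd14, -0.12 to 0.21 for Nlrp3 and -0.0468 to 0.0611 for Il18. The interaction gave -0.28 to 0.12 for Nlrp3, -0.0255 to 0.70 for Il1b and -0.0305 to 0.0737 for Il18. The cause of these changes was not tested. Of 1322 values of single members under an alternative 1237 kept their sign and side of the threshold, 25 passed it only there, 7 no longer passed and 53 changed sign. Depth limits Tlr2, Tlr4, Tlr9, Nlrp3 and Il1b, which had fewer than 10 counts in at least 1 library.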
